A study of Homo sapiens with 6 samples.

Results

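The core of the Hippo pathway was described at the transcript level in HCT116, a human colorectal carcinoma cell line. The members were the 10 genes of the deposited table whose symbol is STK3, STK4, SAV1, LATS1, LATS2, MOB1A, MOB1B, NF2, YAP1 or WWTR1, out of 61806 genes in all, and each symbol matched a single row. RNA-seq had been performed on 6 libraries. In 3 of them, the cells had received a control short interfering RNA and are labelled wildtype (si-NC), and in the other 3 they had received one against STRIP2, whose protein belongs to STRIPAK, a complex of phosphatase and kinase subunits, and are labelled STRIP2 knockdown (si-STRIP2). All cells were grown in McCoy's 5A medium with serum and antibiotics. The sequence and number of the RNA duplexes and the time after transfection are not given in the sources used here. Whether a change followed from less STRIP2 or from another effect of the duplexes was not tested. The number of separate cultures behind each group is also not given, so that p-values measure the spread between these libraries, which may be technical. A level is an average over all cells of a culture, in which fewer cells with a transcript and less transcript per cell cannot be told apart.

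The Hippo pathway is a kinase relay that restrains growth in epithelia. NF2 (merlin), a membrane-linked scaffold, helps to bring the kinases together. The kinases MST1 and MST2, encoded by STK4 and STK3, work with the scaffold SAV1 and phosphorylate LATS1 and LATS2 and their activators MOB1A and MOB1B. LATS kinases in turn phosphorylate the coactivators YAP1 and TAZ (encoded by WWTR1), which are then held in the cytoplasm or degraded. Unphosphorylated YAP1 and TAZ enter the nucleus and act through the DNA-binding TEAD factors. STRIPAK is known to bring the phosphatase PP2A to MST kinases and to lower their activity. This control works mainly through phosphorylation, which RNA-seq does not measure.

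The sequences upstream of YAP1 and SAV1 are shown because these were the members with the largest fall and the largest rise. They are from RefSeq (GRCh38.p14) and end before the annotated transcript starts. The YAP1 sequence lies at chr11:102110197-102110446 on the plus strand and overlaps 1 exon of another gene in GENCODE 29. The SAV1 sequence lies at chr14:50668332-50668556 on the minus strand. Capitals mark the letters GGAATG, the core of the motif bound by TEAD factors, searched on both strands.
YAP1: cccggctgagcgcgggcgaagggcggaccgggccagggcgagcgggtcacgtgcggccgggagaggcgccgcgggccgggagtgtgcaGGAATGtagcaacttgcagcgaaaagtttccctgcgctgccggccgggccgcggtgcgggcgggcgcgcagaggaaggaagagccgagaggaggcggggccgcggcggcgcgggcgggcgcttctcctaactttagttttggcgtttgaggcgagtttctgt
SAV1: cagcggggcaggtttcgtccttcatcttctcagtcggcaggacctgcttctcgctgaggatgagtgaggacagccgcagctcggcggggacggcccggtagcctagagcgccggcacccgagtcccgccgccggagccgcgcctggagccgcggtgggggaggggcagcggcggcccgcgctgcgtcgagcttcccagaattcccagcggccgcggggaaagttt
The single match upstream of YAP1 began 162 bases before the RefSeq start, and the SAV1 sequence held 0 matches. RefSeq promoters were found for 9 of the 10 members, STK3 being the one without an entry, and 1 of their 13 windows of 250 bases held the letters. Among 35116 such windows of all genes, 11.9% held them. A match describes letters and is not evidence of binding.

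The libraries held 17184963 to 21721218 counts, of which the 10 genes took 0.125% to 0.133% in si-NC and 0.109% to 0.112% in si-STRIP2. Without YAP1, these shares were 0.0949% to 0.1% and 0.0947% to 0.0971%, so that the groups then overlapped. STRIP2 itself retained 72.6% of its control level (edgeR adjusted p = 1.62e-05), a partial reduction of its transcript. Of 10 markers of colorectal epithelium, 6 had a mean of at least 1 FPKM (fragments scaled to exonic size and library total). The other 4 had a mean under 0.1 FPKM, and CDX1 among them was listed at 0 in every library. Of 9 markers of immune cells, fibroblasts and endothelium, 1 (COL1A1) had a mean of at least 1 FPKM, and COL1A2 was listed at 0 throughout. The summed level of these 9 markers was 2.45 to 2.82 FPKM in si-NC and 2.14 to 2.41 FPKM in si-STRIP2. Most of it was COL1A1, at 2.12 to 2.55 FPKM against 1.89 to 2.13 FPKM, overlapping groups (edgeR adjusted p = 0.0898). The summed level of the 10 epithelial markers was 690.79 to 720.82 FPKM in si-NC and 667.58 to 691.24 FPKM in si-STRIP2. Of these, 6 were tested, 2 higher and 3 lower at an edgeR adjusted p under 0.05, beside 27.8% and 27.0% of all tested genes.

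The design asks whether the transcripts of the pathway's core differed between si-STRIP2 and si-NC cells. YAP1 fell to 48.4% of its control level. LATS1 and MOB1B fell, to 84.2% and 85.3%. SAV1 and NF2 rose, to 120% and 112%, and the paralogous kinases STK3 and STK4 and the coactivator WWTR1 were called higher by less than 10%. LATS2 and MOB1A were not called. All 10 genes passed the filter on low counts and were tested by the quasi-likelihood test of edgeR, in which a call needed an adjusted p under 0.05 after correction for 15687 genes.

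Of the 10 members, 8 were called, 5 higher and 3 lower. Across all tested genes, 54.8% were called, 27.8% higher and 27.0% lower. The groups' FPKM values did not overlap for 8 of the 10 members and for 58.6% of all tested genes. The median log2 fold change was 0.0085 over the members and 0.014 over all tested genes, and the median absolute log2 fold change was 0.14 and 0.26. Apart from YAP1, the members lay between the quartiles of all tested genes, -0.25 and 0.26. Under DESeq2, 2 members were called higher and 3 lower, with 46.1% of all tested genes called (3556 higher, 3682 lower). With the RLE scaling of edgeR 3 were called in each direction, with 54.6% of all tested genes called (4218 higher, 4341 lower). In a test against a change of 1.2-fold, YAP1 was the 1 member called, and 23.7% of all tested genes were. The number called higher was 3 without si-NC replicate 1 and 2 with si-NC replicate 3, si-STRIP2 replicate 2 or si-STRIP2 replicate 3 left out. Of all tested genes, 3866 of 16043 were called higher without si-NC replicate 1 and 4244 of 16031 without si-NC replicate 3. Without si-STRIP2 replicate 2 or 3, 4044 of 16055 and 4033 of 16045 were called higher. In either direction, 47.9% to 53% of all tested genes were called in these fits.

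**Figure D1:**
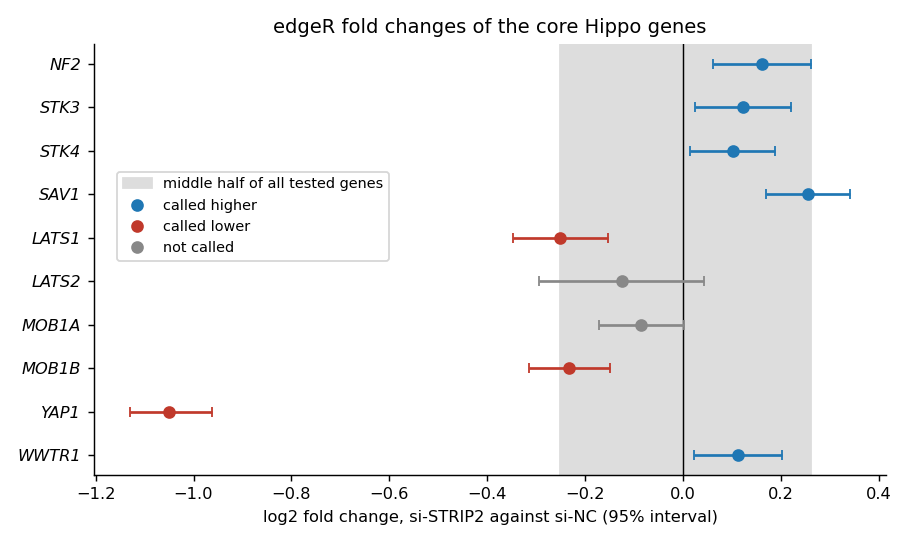
Log2 fold change of the 10 core Hippo genes, si-STRIP2 against si-NC (edgeR, points) with 95% intervals (bars), in the order NF2 to WWTR1 down the pathway. The shaded band spans the quartiles of all tested genes (-0.25 to 0.26), and YAP1, at -1.05, is the only member outside it.

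YAP1 (ENSG00000137693, chromosome 11, 102110447 to 102233424, plus strand), the main transcriptional effector of the pathway, stood at 48.40, 52.11 and 46.99 FPKM in the si-NC libraries and at 23.23, 24.28 and 23.93 FPKM in the si-STRIP2 libraries. Every si-STRIP2 library was far below every si-NC library. The mean level was 49.2 ± 2.64 FPKM in si-NC against 23.8 ± 0.535 FPKM in si-STRIP2 (SD, n = 3), a difference of -25.4 FPKM. For YAP1, edgeR estimated a log2 fold change of -1.05 (standard error, SE, 0.042, adjusted p = 2.22e-20), a 2.07-fold lower level. Of all tested genes, 3.97% had a larger absolute log2 fold change. These values rest on 5096 to 6635 counts per si-NC library and 2601 to 2753 per si-STRIP2 library. Rows that overlap YAP1 held 0.13% as many counts, and its 2 annotated pseudogenes held 2 counts in all. The log2 fold change of YAP1 stayed between -1.08 and -1.01 over 15 alternative analyses and was called in each.

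WWTR1 (ENSG00000018408, chromosome 3, 149517235 to 149736714, minus strand) encodes TAZ, the paralog of YAP1 with the same LATS-dependent control. Its level was 9, 9.54 and 8.90 FPKM in si-NC and 9.79, 10.08 and 9.84 FPKM in si-STRIP2. The lowest si-STRIP2 library lay just above the highest si-NC library. edgeR gave WWTR1 a log2 fold change of 0.11 (SE 0.044, adjusted p = 0.0319). The call was lost in 10 of 15 alternatives, among them those without si-NC replicate 1, si-NC replicate 3, si-STRIP2 replicate 2 or si-STRIP2 replicate 3, where the edgeR adjusted p reached 0.111. The direction was the same in each of the 15.

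Upstream, the scaffold SAV1 (ENSG00000151748, chromosome 14, 50632058 to 50668306, minus strand), which binds MST kinases and promotes their activity towards LATS, had the largest rise of the 10. Its level was 14.37, 14.60 and 14.53 FPKM in si-NC and 17.36, 17.15 and 17.54 FPKM in si-STRIP2. The groups were well apart, with SDs of 0.118 and 0.195 FPKM. For SAV1, edgeR estimated a log2 fold change of 0.26 (SE 0.042, adjusted p = 4.41e-06). The gene ATL1, on the opposite strand, and other overlapping rows held 9.37% as many counts as SAV1. ATL1 had a log2 fold change of -0.17 and was not called (edgeR adjusted p = 0.292).

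NF2 (ENSG00000186575, chromosome 22, 29603556 to 29698598, plus strand), the merlin gene, had 8.46, 8.62 and 7.68 FPKM in si-NC and 9.13, 9.53 and 9.14 FPKM in si-STRIP2. All si-STRIP2 libraries were above all si-NC libraries, and si-NC replicate 3 was the lowest of the 6. edgeR gave NF2 a log2 fold change of 0.16 (SE 0.049, adjusted p = 0.00567). Without si-NC replicate 3 it was 0.11 and the call was lost (edgeR adjusted p = 0.0522).

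The MST kinases stand at the head of the relay. STK4 (ENSG00000101109, chromosome 20, 44966494 to 45080021, plus strand), which encodes MST1, had 5.26, 5.52 and 5.10 FPKM in si-NC and 5.80, 5.68 and 5.59 FPKM in si-STRIP2. STK3 (ENSG00000104375, chromosome 8, 98371228 to 98942827, minus strand), which encodes MST2, had 4.74, 4.50 and 4.71 FPKM in si-NC and 5.02, 5.06 and 5.17 FPKM in si-STRIP2. For both genes the si-STRIP2 libraries lay above the si-NC libraries by a margin smaller than the range within si-NC for STK4 and of similar size for STK3. By edgeR, STK4 changed by 0.10 on the log2 scale (SE 0.043, adjusted p = 0.0453). STK3 changed by 0.12 on the same scale (SE 0.048, edgeR adjusted p = 0.0290). Both calls were near the threshold. That of STK4 was lost in 13 of 15 alternatives, including every one that left out a library other than si-NC replicate 2, with edgeR adjusted p-values up to 0.159 among these. That of STK3 was lost in 9 of 15, including those without si-NC replicate 2, si-STRIP2 replicate 2 or si-STRIP2 replicate 3, with edgeR adjusted p-values up to 0.154 among these.

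The LATS kinases, which phosphorylate YAP1 and TAZ directly, did not give the same call. LATS1 (ENSG00000131023, chromosome 6, 149658153 to 149718105, minus strand) had 8.13, 8.24 and 8.49 FPKM in si-NC and 7.10, 6.62 and 7.21 FPKM in si-STRIP2. Every si-STRIP2 library was lower than every si-NC library. For LATS1, edgeR estimated a log2 fold change of -0.25 (SE 0.048, adjusted p = 3.52e-05). LATS2 (ENSG00000150457, chromosome 13, 20973036 to 21061586, minus strand), itself a known YAP1 and TEAD target, had 3.35, 3.05 and 3.19 FPKM in si-NC and 2.95, 3.16 and 2.72 FPKM in si-STRIP2. Its groups overlapped, since si-STRIP2 replicate 2 was above si-NC replicate 2. The log2 fold change of LATS2 was -0.13 (edgeR adjusted p = 0.203), with a 95% interval from -0.29 to 0.043 that includes 0 and the value of LATS1. LATS2 had the fewest counts of the members, 263 to 408 per library, and its standard error, 0.083, was the largest of the 10.

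MOB1A and MOB1B encode near-identical adaptors that activate LATS kinases. MOB1B (ENSG00000173542, chromosome 4, 70902326 to 71022449, plus strand) had 16.47, 17.76 and 17.15 FPKM in si-NC and 14.61, 14.52 and 14.69 FPKM in si-STRIP2. The si-STRIP2 libraries were tightly grouped below the si-NC libraries. edgeR gave MOB1B a log2 fold change of -0.23 (SE 0.041, adjusted p = 1.09e-05). DCK, which overlaps MOB1B on the same strand, held 76.6% as many counts and had a log2 fold change of 0.10 (edgeR adjusted p = 0.0496), in the other direction. MOB1A (ENSG00000114978, chromosome 2, 74152528 to 74178898, minus strand) had 57.98, 60.16 and 54.67 FPKM in si-NC and 52.17, 56.07 and 55.06 FPKM in si-STRIP2. Its groups overlapped. The log2 fold change of MOB1A was -0.085 (edgeR adjusted p = 0.0921), with a 95% interval from -0.17 to 0.0021. MOB1A passed the threshold without si-NC replicate 3 (log2 fold change -0.12, edgeR adjusted p = 0.00790) and with a filter of 1 FPKM in 3 libraries (-0.103, edgeR adjusted p = 0.0243). Without si-STRIP2 replicate 1 its log2 fold change was -0.0462 (edgeR adjusted p = 0.441). How reads shared by the MOB1A and MOB1B transcripts were assigned is not given in the sources used here, so their separate values are uncertain to that extent.

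**Figure D2:**
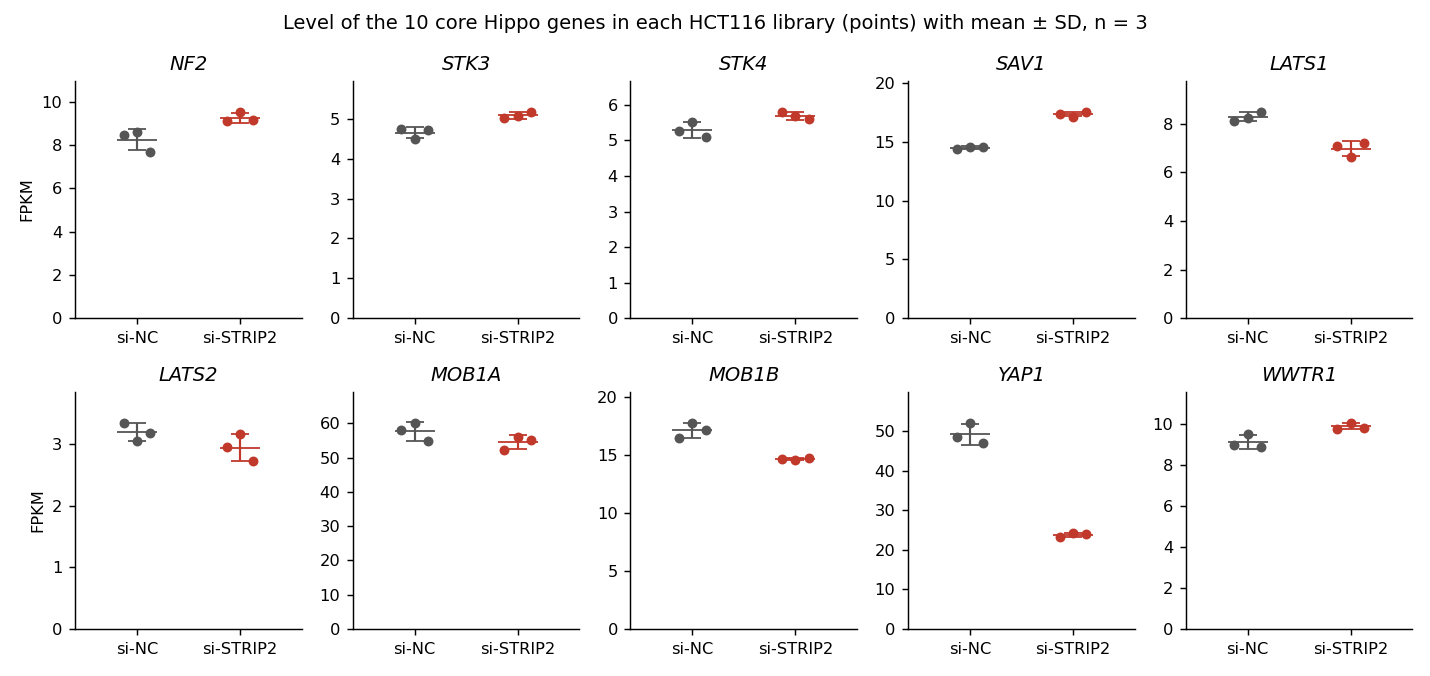
FPKM of each of the 10 genes in the 3 si-NC (grey) and 3 si-STRIP2 (red) libraries (points), with the mean and SD (lines, n = 3), on linear axes that start at 0. YAP1 shows a wide gap, from 47.0 to 52.1 FPKM down to 23.2 to 24.3 FPKM, while LATS2 and MOB1A show overlapping groups.

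The members' levels, which FPKM scales to the exonic size of each gene and not to a transcript length, spanned a wide range. That size was 16570 bases for STK4 and 12604 for STK3 against 5605 for SAV1, so the order depends in part on it. In si-NC the order of the mean FPKM was MOB1A (57.6), YAP1 (49.2), MOB1B (17.1), SAV1 (14.5), WWTR1 (9.15), LATS1 (8.29), NF2 (8.25), STK4 (5.29), STK3 (4.65) and LATS2 (3.20). Of these neighbours, LATS1 and NF2 alone had overlapping values. The adaptor MOB1A and the coactivator YAP1 thus had the highest FPKM of the 10. On this scale the 4 kinases held places in the lower part of the order, with NF2 between LATS1 and STK4. In si-STRIP2 the order differed at 2 places. SAV1 (17.15 to 17.54 FPKM) stood above MOB1B (14.52 to 14.69 FPKM), and NF2 (9.13 to 9.53 FPKM) above LATS1 (6.62 to 7.21 FPKM). YAP1 kept the second place, and its share of the counts of the 10 genes went from between 23.8% and 24.7% in si-NC to between 13.4% and 13.6% in si-STRIP2.

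Paralogs were compared within each library, where scaling plays no part. The ratio of YAP1 to WWTR1 was 5.38, 5.46 and 5.28 in the si-NC libraries and 2.37, 2.41 and 2.43 in the si-STRIP2 libraries. The ratio was thus much lower in every si-STRIP2 library, with a difference in mean log2 ratio of -1.16 (exact permutation test, 2-sided, p = 0.1, the smallest that 3 against 3 allows, adjusted p = 0.2 over 4 ratios). YAP1 made up 84.3% ± 0.23 of the summed YAP1 and WWTR1 level in si-NC against 70.6% ± 0.26 in si-STRIP2 (SD, n = 3). The sum of both genes was lower in si-STRIP2, with 58.3 ± 2.99 FPKM in si-NC against 33.7 ± 0.672 FPKM in si-STRIP2 (SD, n = 3), or 57.8% of the control.

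The ratio of MOB1A to MOB1B was 3.52, 3.39 and 3.19 in si-NC and 3.57, 3.86 and 3.75 in si-STRIP2. The groups did not overlap, by a small margin (log2 difference 0.15, exact permutation p = 0.1, adjusted p = 0.2). The ratio of LATS1 to LATS2 was 2.43, 2.70 and 2.66 in si-NC and 2.41, 2.09 and 2.65 in si-STRIP2, with overlapping groups (log2 difference -0.13, exact permutation p = 0.2, adjusted p = 0.267). This difference ranged from -0.208 to -0.0383 on leaving out 1 library, and si-STRIP2 replicate 2 was the one left out at -0.0383, si-STRIP2 replicate 3 at -0.208. With 3 libraries against 3 no p below 0.1 could be reached, so that none of the 4 ratios could be called. The summed LATS1 and LATS2 level was 11.5 ± 0.195 FPKM in si-NC against 9.92 ± 0.135 FPKM in si-STRIP2 (SD, n = 3), 86.4% of the control and lower in each si-STRIP2 library (exact permutation p = 0.1). The ratio of STK3 to STK4 was 0.901, 0.815 and 0.924 in si-NC and 0.866, 0.891 and 0.925 in si-STRIP2, a log2 difference of 0.024 (exact permutation p = 0.8, adjusted p = 0.8). The summed level of the 2 MST kinases was 9.94 ± 0.116 FPKM in si-NC against 10.8 ± 0.0416 FPKM in si-STRIP2 (SD, n = 3), 108% of the control (exact permutation p = 0.1).

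**Figure D3:**
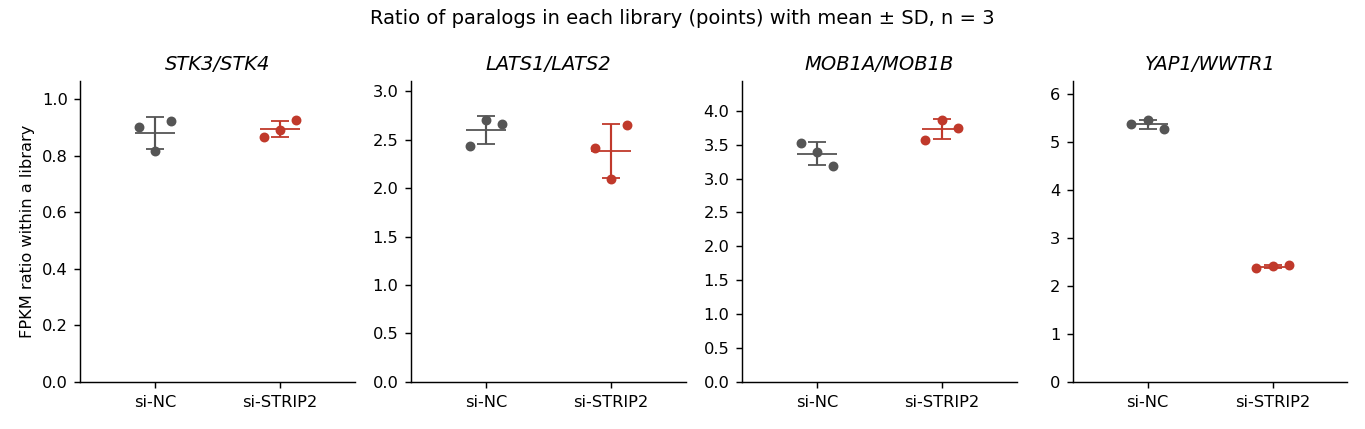
Ratio of the FPKM of 2 paralogs within each library (points), with mean and SD (lines, n = 3), for 4 pairs in si-NC (grey) and si-STRIP2 (red), on axes that start at 0. The YAP1 to WWTR1 ratio went from about 5.37 to 2.40, and the STK3 to STK4 and LATS1 to LATS2 ratios overlapped between groups.

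The other genes of the pathway were taken from a list of 54 upstream regulators, YAP-binding proteins and degradation factors. Like the other lists, it was chosen with earlier results of these data known. Of the 51 genes of the list that were tested, 29 (56.9%) were called, 10 higher and 19 lower, against 54.8% of all tested genes. Their median log2 fold change was -0.031. Of the membrane scaffolds that act beside NF2, 3 of the 4 tested fell and 0 rose by edgeR, beside 27.0% and 27.8% of all tested genes. WWC1 (KIBRA), a partner of NF2, had a log2 fold change of -0.27 (edgeR adjusted p = 2.91e-05), and its paralog WWC2 had one of -0.45 (edgeR adjusted p = 1.49e-10). FRMD6, a relative of NF2 in the same protein superfamily, was not called (log2 fold change -0.0044, 95% interval from -0.17 to 0.16).

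Of the 10 kinases listed as activators of MST or LATS, 8 were called, 3 higher and 5 lower, beside 27.8% and 27.0% of all tested genes. TAOK1, which phosphorylates MST kinases, had 10.71, 12.41 and 11.86 FPKM in si-NC and 10.21, 9.85 and 10.79 FPKM in si-STRIP2, groups that overlapped. Its log2 fold change was -0.18 (edgeR adjusted p = 0.00104). MAP4K4, which can phosphorylate LATS kinases in place of MST, had a log2 fold change of -0.20 (edgeR adjusted p = 0.000101). The NDR kinases, relatives of LATS that also bind MOB1 proteins, were called in opposite directions. STK38 (NDR1) went from 14.28 ± 0.520 to 17.39 ± 0.761 FPKM (log2 fold change 0.28, edgeR adjusted p = 1.33e-05), and STK38L (NDR2) from 11.27 ± 0.445 to 8.02 ± 0.169 FPKM (log2 fold change -0.49, edgeR adjusted p = 7.22e-11; SD, n = 3 for each).

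Of 5 YAP-binding proteins, which hold YAP1 at junctions or in the cytoplasm, 1 was called lower and 4 were not called. Over all tested genes, 27.0% were called lower and 27.8% higher. The gene called was AMOTL2, with a log2 fold change of -0.707 (edgeR adjusted p = 1.85e-10). AMOT had a log2 fold change of 0.037 and PTPN14 of 0.13 (edgeR adjusted p = 0.781 and 0.0723). PTPN14 passed the threshold without si-NC replicate 2 (0.21, edgeR adjusted p = 0.00571). Of 6 RASSF genes, whose proteins bind MST kinases, 2 (33.3%) fell and 4 were not called, beside the 27.0% of all tested genes called lower. RASSF6 had 1.69, 1.72 and 1.67 FPKM in si-NC and 0.71, 0.83 and 0.81 FPKM in si-STRIP2. It was the only gene of the 54 with a change of at least 2-fold among those called (log2 fold change -1.12, edgeR adjusted p = 3.06e-10). On the scale of log2(FPKM + 1), which understates changes of low genes, its difference was -0.595 (limma adjusted p = 0.000187), short of 2-fold. The smallest adjusted p of the list was that of FAT1, an atypical cadherin, with 64.44, 81.92 and 66.61 FPKM in si-NC and 48.89, 45.71 and 47.57 FPKM in si-STRIP2 (log2 fold change -0.59, edgeR adjusted p = 7.17e-11).

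**Figure D4:**
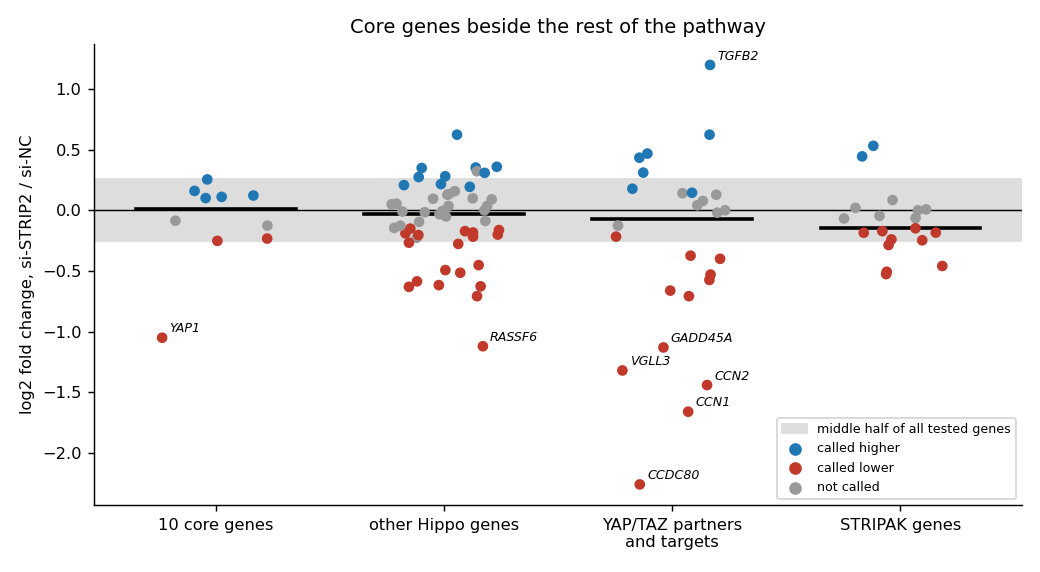
Log2 fold change of each tested gene (points, coloured by call) in the core (10 genes), the other Hippo genes (51), the YAP/TAZ partners and targets (26) and STRIPAK (19), with the median of each list (black line) and the quartiles of all tested genes (band). Genes past 2-fold are named. YAP1 is the only core gene among them, and most named genes lie below 0.

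Downstream, a list of TEAD and VGLL factors and YAP1 target genes, also chosen with earlier results known, held 30 genes. Of these, 26 were tested and 19 (73.1%) called, 7 higher and 12 lower, with a median log2 fold change of -0.072. Over all tested genes the share called was 54.8%, with 27.8% higher and 27.0% lower. The list includes LATS2 and shares AMOTL2, AJUBA, PTPN14 and NUAK2 with the list above. Of the DNA-binding partners, TEAD1 fell from 25.6 ± 1.01 to 19.8 ± 0.330 FPKM (log2 fold change -0.37, edgeR adjusted p = 1.00e-09), TEAD2 rose (0.31, edgeR adjusted p = 0.000531) and TEAD4 rose (0.44, edgeR adjusted p = 0.000284). TEAD3 was not called (0.078, edgeR adjusted p = 0.367). The cofactor VGLL4, which competes with YAP1 for TEAD factors, had a log2 fold change of -0.57 (edgeR adjusted p = 7.60e-09). Overlapping genes on the opposite strand held 82.9% as many counts as VGLL4 and 31.1% as many as TEAD2. The largest were ATG7 for VGLL4 (log2 fold change 0.299, edgeR adjusted p = 0.00254) and CD37 for TEAD2 (0.0913, edgeR adjusted p = 0.636). The strand setting of the counting is not given in the sources used here.

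Among the targets, the fall of YAP1 stood beside changes in both directions. Of the whole list, 7 genes were called higher, 12 lower and 7 not. AXL, named after its value was seen, rose on 947 to 1538 counts per library (log2 fold change 0.469, edgeR adjusted p = 2.35e-10). CRIM1 and ARHGEF17 were not called (0.00151 and 0.0426, edgeR adjusted p = 0.982 and 0.739). CCN1, a secreted matrix protein, had 10.03, 9.01 and 10.07 FPKM in si-NC and 3.46, 2.94 and 2.86 FPKM in si-STRIP2. CCN2, its relative, had 37 to 54 counts per si-NC library and 13 to 25 per si-STRIP2 library, a log2 fold change of -1.44 (SE 0.258, edgeR adjusted p = 1.56e-05). CCN1 had a log2 fold change of -1.66 (edgeR adjusted p = 3.70e-18), so that both genes were called and past 2-fold. ANKRD1, a widely used YAP1 reporter gene, was not tested, since it had 0 to 3 counts per library. GADD45A, a stress-response gene, was also past 2-fold and went from 118.6 ± 3.72 to 54.3 ± 1.43 FPKM (SD, n = 3; log2 fold change -1.13, edgeR adjusted p = 1.24e-21), on 1777 to 4923 counts per library. CCDC80 and TGFB2, and VGLL3 of the VGLL factors in the same list, were past 2-fold as well and rested on few counts. CCDC80 had 37 to 54 counts in si-NC and 6 to 12 in si-STRIP2, VGLL3 18 to 28 and 6 to 10, and TGFB2, the growth factor gene that rose, 13 to 26 and 38 to 47. ASAP1, which has the third smallest adjusted p of the list, had a log2 fold change of -0.53 (edgeR adjusted p = 1.59e-11).

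Of the 20 STRIPAK genes, 19 were tested and 12 (63.2%) called, 2 higher and 10 lower, with a median log2 fold change of -0.15, against 54.8% of all tested genes called, 27.8% higher and 27.0% lower. STRIP2, itself a STRIPAK gene and called lower, was the target of the knockdown, so its call is not a result about the complex. SLMAP, the subunit that links STRIPAK to MST kinases, was not called. Its level was 9.21, 9.63 and 8.88 FPKM in si-NC and 8.65, 8.72 and 9.24 FPKM in si-STRIP2 (log2 fold change -0.063, 95% interval from -0.15 to 0.024). SIKE1, which binds SLMAP, was also not called (0.021, 95% interval from -0.069 to 0.11). The 3 STRIPAK genes with the smallest adjusted p were PPP2R1A, the scaffold subunit of PP2A, which rose (log2 fold change 0.53, edgeR adjusted p = 4.39e-13), the kinase gene STK24, which fell (-0.51, edgeR adjusted p = 3.01e-12), and CTTNBP2NL, which fell (-0.53, edgeR adjusted p = 5.93e-09). Genes on the opposite strand of STK24 held 33.7% as many counts. The largest of them, FARP1, also fell (log2 fold change -0.251, edgeR adjusted p = 7.6e-05). Whether the counts of STK24 include reads of FARP1 was not tested.

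The deposited annotation places 269 genes, 9 of the 10 members among them and STK4 not, under its term for Hippo signalling. Of these, 137 were tested and 78 (56.9%) called, 29 higher and 49 lower, with a median log2 fold change of -0.072. The share called was close to the 54.8% of all tested genes. The term was taken as deposited. It includes pseudogenes, such as ACTBP1 and YWHAZP1, and also CD37, the gene that overlaps TEAD2. Of its genes, 132 were not tested.

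**Figure D5:**
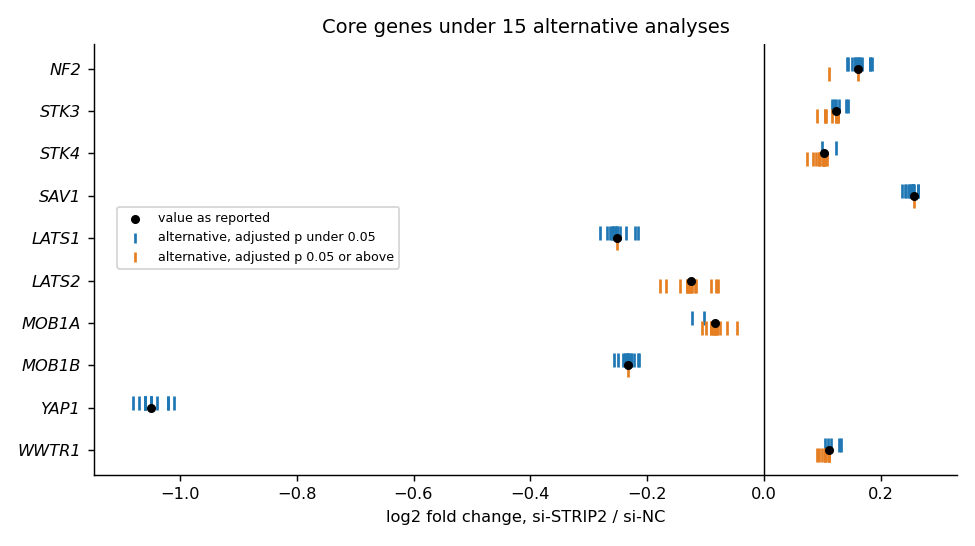
Log2 fold change of each core gene as reported (black points) and under 15 alternative analyses (ticks), blue where the adjusted p was under 0.05 and orange where it was not. YAP1 stayed between -1.08 and -1.01 with all ticks blue, while the ticks of STK3, STK4 and WWTR1 were mostly orange and all above 0.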

How the data were processed

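Poly(A) RNA-seq libraries were prepared with a directional kit, per the labels' protocols. The submitters' processing notes name cutadapt 1.9.1, HISAT2 2.2.1, HTSeq 0.6.1 and GRCh38.p13, without settings. The deposited table gives the authors' raw counts per gene and their FPKM values, per the file headers. The FPKM values differed from counts divided by exonic size and library total by at most 0.005. Other columns, such as the exonic size, are the authors'.

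Counts of all genes were analysed in R 4.3.3 with edgeR 4.0.16 (filterByExpr with a minimum count of 10, TMM scaling, quasi-likelihood F test, group as the only term, 2-sided), with Benjamini-Hochberg adjustment over the 15687 genes kept. Standard errors (SE) were derived from each fold change and its F statistic. On simulated counts for these 15687 genes, the test recovered 75% of genes changed by 1.5-fold and 86% of those changed by 2-fold. Of its calls, 7.47% were false. Far fewer genes were changed in the simulation than the 54.8% called in the data, and none by less than 1.5-fold. These rates may therefore not hold for the calls made here. DESeq2 1.42.0 and limma 3.58.1 were alternatives. Ratios of paralogs were compared by exact 2-sided permutation tests.

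The members and lists were chosen with earlier results of these data known. Named beside the members are STRIP2 and a fixed set of regulators, partners and targets, the 3 genes of each list with the smallest adjusted p, and called genes past 2-fold. ATL1, DCK, FARP1, ATG7, CD37, AMOTL2, AXL, CRIM1, ARHGEF17, COL1A1, COL1A2 and CDX1 were named after their values were seen or as markers. Overlaps of genes use the table's coordinates.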

Additional observations from a re-analysis of the deposited data

How the results depend on the processing

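Results were recomputed under 15 alternatives, and the term of the deposited annotation was added after seeing the data. The direction of each of the 10 members was the same in every alternative. The number of members called was 8, and it was 5 under DESeq2, 5 with no filter on low counts and 1 in the test against 1.2-fold. The share of all tested genes called was 54.8%, and it was 46.1%, 25.5% (of 32799 genes) and 23.7% at these settings. The number called higher, 5 as reported, was 2 under DESeq2, 3 with RLE scaling, 2 with no filter, 2 with a filter of 1 FPKM in 3 libraries, 3 with limma at a pseudocount of 1 and 3 at 0.1. Among all tested genes, the number called higher was 3556 of 15687 under DESeq2, 4218 of 15687 with RLE scaling and 4213 of 32799 with no filter. It was 3635 of 12329 with the FPKM filter, and 3615 and 3601 of 12329 with limma. The share called in either direction was 54.6% with RLE scaling, 60.7% with the FPKM filter, and 56.2% and 56.1% with limma. In the edgeR test against 1.2-fold, 0 members were called higher, also at an unadjusted p under 0.05, and 1 was called lower (YAP1). Of all 15687 tested genes, that test called 1780 higher and 1943 lower. It called 10 other Hippo genes (1 higher, 9 lower) and 15 partner and target genes (4 higher, 11 lower). It also called 5 STRIPAK genes (2 higher, 3 lower) and 34 genes of the annotation term (11 higher, 23 lower). The cause was not tested for DESeq2 and RLE scaling, while the 1.2-fold test asks for a larger change by construction.

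Leaving out each library in turn gave 5 to 7 members called, 2 to 4 higher and 3 to 4 lower. Of all tested genes, 47.9% to 53% were then called. Without si-NC replicate 1, 3866 of 16043 were called higher and 3824 lower. Without si-NC replicate 3, 4244 of 16031 were called higher and 4250 lower. The log2 difference of the YAP1 to WWTR1 ratio was -1.17 to -1.15 in these fits and -1.12 when 1 was added to each FPKM, which shrinks ratios by construction. That of STK3 to STK4 ranged from -0.030 to 0.060. Among genes that were not called, sign changes occurred on leaving out a library for FRMD6 (0.000136 and 0.0229 with si-NC replicate 2 or 3 left out, 0.0375 with si-STRIP2 replicate 1 left out, in a range of -0.0458 to 0.0375), for AMOT (-0.0804 without si-STRIP2 replicate 1, to 0.156) and for SIKE1 (-0.00365 without si-STRIP2 replicate 3, to 0.0483).

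The libraries carry the same replicate numbers in both groups, but their deviations from the group means were not correlated by number (r = -0.103, -0.0117 and -0.101 across genes, which are not independent). With the number as a replicate block, 3 members were called higher and 3 lower, with 52.9% of all tested genes called. Of all 15687 tested genes, 4196 were then called higher and 4097 lower. LATS2 had the fewest counts of the 10 members, 263 to 408 per library.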
